A study of Mus musculus with 45 samples.

Results

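What the bead isolation of astrocytes retained, lost and altered was read from mice that drank only water, by setting the RNA of the isolated cells against that of the unseparated tissue. The comparison used 22 of the 44 libraries analysed: 10 libraries of isolated cells and 12 of total homogenate, all of medial prefrontal cortex. The mice were C57BL/6J animals given water and no ethanol for 72 days. The libraries were chosen by their labels alone. The homogenate was 5% of the minced tissue suspension of each mouse, set aside before any further step, and the rest was dissociated, freed of myelin on 25% Percoll and captured with beads against ACSA2, an epitope of the astrocyte surface protein encoded by Atp1b2. Both fractions of 10 mice were sequenced, so the mouse number pairs them, and 2 homogenates (mice 67 and 72) have no partner here. Sex and age are not given in the labels.

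Astrocytes take up glutamate and potassium around synapses, store glycogen, send endfeet to blood vessels and are joined by gap junctions. The cortex also holds neurons, whose axons and dendrites are torn off when tissue is dissociated, oligodendrocytes wrapped around axons, microglia, and the cells of the vessel wall. Dissociation itself is known to switch on early response genes in glia within the time of a preparation, and a homogenate lysed without it carries the transcripts of processes as well as of cell bodies. In this design, the cells captured and the handling they went through cannot be told apart. In bulk RNA, moreover, fewer cells of a type and less RNA per cell cannot be told apart.

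Expression was measured by RNA sequencing of poly(A) RNA as read counts per gene, given here as CPM (counts per 1000000 gene counts after scaling by the trimmed mean method). Fold changes are log2 values, isolated cells minus homogenate, with the standard error of the edgeR quasi-likelihood fit, and a gene was called at a false discovery rate (FDR) under 0.05. Total gene counts were 504492 to 2938854 in isolated cells and 3973666 to 7837038 in homogenates. Between 47.5% and 90.3% of an isolated library did not align, against 18% to 55.2% of a homogenate. Of 13434 genes tested, 4994 (37.2%) were higher in isolated cells and 5418 (40.3%) lower, 77.5% in either direction. By at least 2-fold, 2557 (19%) were higher and 2996 (22.3%) lower (41.3% either way), and by at least 8-fold 490 (3.65%) and 1128 (8.4%), or 12% in all. For 5047 genes (37.6%), every isolated library lay on 1 side of every homogenate, above it for 16.8% and below it for 20.7%. With more than 3 in 4 genes called, a count of called genes in a list says little unless it is set against these shares, and the size of the change carries more.

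Some libraries stood apart. The isolated library of mouse 73 had the highest astrocyte list share (3.77% of gene counts, against 1.32% to 2.51% in the other isolated libraries) and the lowest microglia share (0.859%). The isolated library of mouse 80, with the lowest total count, had the highest share of excitatory neuron genes (0.102%). Among homogenates, that of mouse 73 had 1.20% of its counts in mature oligodendrocyte genes, against 0.233% to 0.447% in the others, and the highest share of striatal neuron genes (0.304%). That of mouse 68 had the lowest share of excitatory neuron genes (0.377%) and the highest of interneuron genes (0.354%). These 4 libraries were singled out after the data were seen. Without homogenates 68 and 73, 5018 genes were higher and 5230 lower, and without isolated libraries 73 and 80, 4915 and 5588. List values without them are given below for some of the lists where they differ, and lists given without such values may differ too.

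Genes that define astrocytes were mostly higher in isolated cells, by about 2-fold. Of 25 astrocyte genes, 21 were higher, 1 was lower and 3 did not pass, with a median log2 fold change of 1.1. The median of all genes tested was -0.05. Their summed share was 1.32% to 3.77% (median 2.11%) of the gene counts in isolated cells and 1.09% to 1.39% (median 1.25%) in homogenate, a within-mouse ratio of 1.64-fold (from 1.04 to 2.72). In the mouse with the lowest ratio, mouse 70, the astrocyte share was almost level between the fractions. Mfge8, which encodes a secreted bridge between phagocytes and phosphatidylserine, led the list, with 681 to 1294 CPM (median 921) in isolated cells and 161 to 297 CPM (median 236) in homogenate (2.06 ± 0.11, edgeR FDR 2.16e-15). Gja1, the gene of the gap junction protein connexin 43, stood at 541 to 2443 CPM (median 913) and 272 to 495 CPM (median 358) (1.58 ± 0.18). The groups did not overlap for either gene. Without isolated libraries 73 and 80, 20 astrocyte genes were higher and 2 lower, with a median of 0.99.

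The 2 astrocyte glutamate transporters did not move alike. Slc1a3, the gene of GLAST, ran from 1156 to 3456 CPM (median 1859) in isolated cells and from 620.2 to 972 CPM (median 867) in homogenate, with no overlap (1.23 ± 0.13, edgeR FDR 3.05e-09). Slc1a2, the gene of GLT-1, which carries most glutamate uptake in the forebrain, ran from 3641 to 11559 CPM (median 5247) and from 4248 to 7158 CPM (median 5897). Its ranges overlapped throughout, and the fold change was 0.00 ± 0.16 (edgeR FDR 0.983, 95% interval -0.32 to 0.33). Neurons also transcribe Slc1a2 at a low level, and an annotated transcript on the opposite strand, Gm13872, overlaps its exons. The other 2 astrocyte genes that did not pass were S100b (-0.25 ± 0.14), a calcium-binding protein gene that mature oligodendrocytes also use and that passed as lower without isolated library 80 (-0.31), and Ppp1r3c (0.00 ± 0.18), which directs glycogen synthesis. In the wider group of glutamate and GABA handling, 8 of 10 genes were higher. They included Glul, the glutamine synthetase gene (1.1 ± 0.09), the GABA transporter gene Slc6a11 (1.02 ± 0.2) and the glutamine exporter gene Slc38a3 (1.55 ± 0.12). Got1, the cytosolic aspartate aminotransferase of the malate shuttle, went the other way, at 36.7 to 89.2 CPM (median 55.9) in isolated cells and 172 to 288 CPM (median 203) in homogenate (-1.91 ± 0.13, edgeR FDR 1.13e-13).

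Channels, pumps and junction genes of astrocytes were higher in 11 of 12 cases, with a wide spread of sizes. The endfoot water channel gene Aqp4 rose by 0.76 ± 0.19 and the potassium channel gene Kcnj10 by 0.56 ± 0.12, and both overlapped between the fractions. Slc12a2, the gene of the chloride importer NKCC1, which oligodendrocyte lineage and vascular cells also use, rose by 2.53 ± 0.14 without overlap. Atp1b2, which encodes the captured antigen, ran from 620.3 to 1748 CPM (median 1027) and from 483 to 670.4 CPM (median 561) (0.93 ± 0.12). Transcription factor genes of the lineage were higher in 14 of 17 cases, among them Sox9 (1.16 ± 0.17) and the Notch target Hes5 (1.51 ± 0.2). The nuclear factor I genes split, with Nfia at 0.52 ± 0.09, Nfib lower (-0.58 ± 0.15) and Nfix not past the threshold (-0.17 ± 0.12, edgeR FDR 0.211, and past it as lower, at -0.21, without homogenate 68). Without homogenates 68 and 73 the list had 14 higher and 2 lower.

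Of the 12 astrocyte genes tied to the pial surface, white matter and fibrous cells, 6 were higher, with Vim at 0.94 ± 0.14 and Id3 at 1.07 ± 0.18, 4 were lower, and 2 did not pass (median 0.48). The lower genes were Gfap, Myoc, Thbs4 and Tnc. Gfap, the intermediate filament gene, ran from 24.3 to 110.1 CPM (median 36.2) in isolated cells and from 57.5 to 403 CPM (median 184) in homogenate, with some overlap (-2.13 ± 0.32, edgeR FDR 1.33e-06). Myoc, which encodes myocilin and marks astrocytes of the glia limitans under the pia, was at 0 to 2.54 CPM (median 0.559) in isolated cells and 10.4 to 95.6 CPM (median 39.3) in homogenate. The groups did not overlap, with a fitted change of -5.72 ± 0.56 (edgeR FDR 7.08e-10), although with so few counts in isolated cells that size rests on the prior count. Thbs4, the gene of a thrombospondin of subventricular and surface astrocytes, was lower (-1.67 ± 0.54, or -2.85 without isolated library 73, and -1.45, which did not pass, without the isolated libraries under 1000000 counts), as was Tnc, the tenascin C gene (-0.97 ± 0.28). Both directions also met in the list of reactive astrocyte genes, where 6 of 10 were higher and 2 lower. Serpina3n, a serine protease inhibitor gene strongly raised in reactive astrocytes, was lower (-1.26 ± 0.26), as was Gfap, while the chaperone gene Hspb1 (3.77 ± 0.17) and the sphingosine receptor gene S1pr3 (1.99 ± 0.13) were higher. Lcn2, Timp1 and Steap4 had too few counts to be tested.

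**Figure D1:**
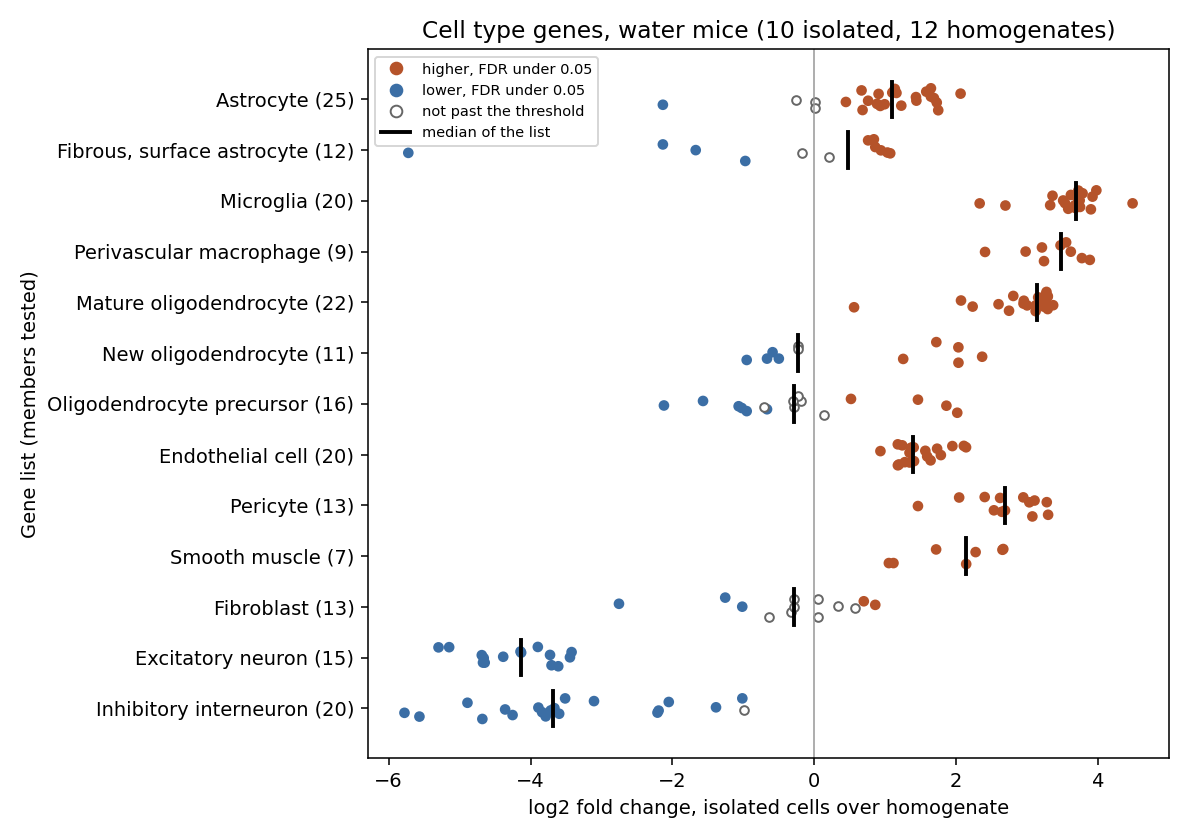
Log2 fold change (x axis, isolated cells over homogenate, water mice) of each tested member of 13 cell type lists (y axis, number tested in brackets). Filled points passed an FDR of 0.05, open points did not, and black bars are list medians. Microglia, macrophage, oligodendrocyte and mural genes lie to the right of most astrocyte genes, neuron genes lie to the left, and the precursor, newly formed oligodendrocyte and fibroblast lists straddle 0.

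Of 13 genes of factors that astrocytes release to act on synapses, 8 were higher, 3 lower and 2 did not pass (median 0.9). Sparc, the gene of an antagonist of synapse formation that microglia and endothelium also express, was 712 to 1137 CPM (median 878) in isolated cells and 129 to 208 CPM (median 171) in homogenate (2.42 ± 0.11). Its relative Sparcl1, which encodes the synapse-promoting protein hevin, did not pass (0.15 ± 0.1, edgeR FDR 0.181), although it passed as higher without isolated library 70 (0.21), with upper-quartile scaling (0.26) and with library size scaling (0.25). Tgfb1 rose by 4.03 ± 0.15 and is chiefly a microglial transcript in the brain. Gpc6, which encodes a glypican that recruits AMPA receptors, rose by 1.11 ± 0.19. Bdnf, the neurotrophin gene that cortical neurons transcribe, was at 0 to 5.69 CPM (median 1.59) in isolated cells and 15.4 to 85.3 CPM (median 46.8) in homogenate (-4.68 ± 0.4).

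Microglial genes had a larger median fold change than the astrocyte list, though the difference between the lists was not tested. All 20 tested were higher without overlap between the fractions, with a median of 3.7 and a range from 2.33 ± 0.27 (Sall1, a transcription factor gene of microglial identity) to 4.49 ± 0.21 (Laptm5, a lysosomal membrane protein gene of blood-lineage cells). Between those ends, Cx3cr1 rose by 3.67 ± 0.12, P2ry12 by 3.75 ± 0.13, Tmem119 by 3.92 ± 0.13 and C1qa by 3.62 ± 0.13. Sall1 was high in 1 homogenate, that of mouse 68, at 276 CPM, where the other 11 lay between 44.3 and 72.6 CPM. The summed microglial share was 0.859% to 1.87% (median 1.31%) in isolated cells and 0.0815% to 0.129% (median 0.0977%) in homogenate, a within-mouse ratio of 14.3-fold (from 7.03 to 22.4). Genes of perivascular macrophages were high too, and all 9 tested rose (median 3.47), for example the mannose receptor gene Mrc1 (3.77 ± 0.23), Pf4 (3.88 ± 0.28) and the haemoglobin scavenger receptor gene Cd163 (3.21 ± 0.28). With the mouse as a block, 7 were tested and all 7 were higher.

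Microglial activation and complement genes did not all follow the microglial list. Apoe, Clec7a and Ctsd were among the 9 of 12 activation genes that were higher, with Clec7a, the gene of the receptor dectin-1, at 4.21 ± 0.36. Lpl, the lipoprotein lipase gene that cortical neurons also express, was lower (-3.04 ± 0.36). Of 12 complement genes 9 were higher. The anaphylatoxin receptor gene C3ar1 ran from 157 to 403 CPM (median 238) in isolated cells and 3.59 to 7.51 CPM (median 4.99) in homogenate (5.6 ± 0.17). Cd55, which protects cells from complement, was lower (-1.83 ± 0.37).

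Few genes of blood cells could be measured in either fraction. Of 17 genes of monocytes and neutrophils only 2 had enough counts to be tested, and both were higher: Csf3r (4.45 ± 0.18), which microglia also transcribe, and Ly6c2 (1.63 ± 0.25), which is close in sequence to Ly6c1 of endothelium. Of the lymphocyte genes in the files, 2 of 15 could be tested, and the T cell genes Cd3e, Cd3d, Cd3g and Cd8a had 0 counts in every isolated library. Ptprc, the pan-leukocyte gene CD45 that microglia carry, rose by 4.24 ± 0.17. Among erythroid genes only Alas2 could be tested (3.0 ± 0.42). The globin genes did not pass the count filter.

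The genes of mature oligodendrocytes were higher in isolated cells although myelin had been removed. All 22 were higher, with a median of 3.14, and without homogenates 68 and 73 the median was 3.49. Their share was 1.76% to 3.33% (median 2.38%) against 0.233% to 1.2% (median 0.343%), a within-mouse ratio of 7.8-fold (from 1.74 to 11.8). In isolated cells the 22 genes thus took a larger median share than the 25 astrocyte genes did. Mag, the gene of myelin-associated glycoprotein, ran from 788 to 1687 CPM (median 1071) in isolated cells and 78.3 to 376 CPM (median 115) in homogenate (3.12 ± 0.24). Mog, of another myelin glycoprotein, rose by 3.24 ± 0.28 and Aspa, of the enzyme that splits N-acetylaspartate, by 3.37 ± 0.2. Mbp, the myelin basic protein gene, was the clear exception. Its transcripts are known to be carried along oligodendrocyte processes and translated in the myelin sheath. It ran from 1660 to 3263 CPM (median 2272) in isolated cells and 906 to 4557 CPM (median 1352) in homogenate, with overlap, and rose by 0.56 ± 0.22 (edgeR FDR 0.0219). Without homogenate 73, or without homogenates 68 and 73, this was 0.85, and without the isolated libraries under 1000000 counts 0.44, which did not pass. Mobp, another myelin gene whose messenger RNA is found in processes, was the third from the bottom of the list at 2.23 ± 0.27, just above Enpp2, the autotaxin gene (2.07 ± 0.2). Mobp was chosen after its value was seen, and the part of transcript location in these values was not tested.

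For earlier stages of the lineage, the median fold changes and the summed shares went in different directions. For newly formed oligodendrocytes the direction of the median depended on the libraries used. Of 11 genes of newly formed oligodendrocytes, 5 were higher, 4 lower and 2 did not pass (median -0.23). Without homogenates 68 and 73 this median was 0.11, and in the ethanol mice described below it was 0.17. Their summed share was 0.0503% to 0.071% (median 0.0637%) in isolated cells against 0.0401% to 0.0833% (median 0.0433%) in homogenate, a within-mouse ratio of 1.32-fold (from 0.789 to 1.64). Enpp6 rose by 2.37 ± 0.25 and Tcf7l2 by 2.03 ± 0.16, while the receptor gene Gpr17 ran from 6.93 to 104 CPM (median 42) in isolated cells and 65.3 to 109.7 CPM (median 77.2) in homogenate (-0.95 ± 0.22). Of 16 precursor genes, 4 were higher, 6 lower and 6 did not pass (median -0.29), with a summed share of 0.089% to 0.244% (median 0.202%) against 0.102% to 0.15% (median 0.12%) and a within-mouse ratio of 1.56-fold (from 0.85 to 1.98). The higher 4 are each shared with other cells: Olig1 (1.86 ± 0.15) and Olig2 (2.02 ± 0.14) with mature oligodendrocytes, Cspg4 (1.46 ± 0.1) with pericytes, and Ptprz1 (0.52 ± 0.18) with astrocytes. Ptprz1 did not pass with the mouse as a block (0.37). Pdgfra, the growth factor receptor that defines precursors, ran from 22.1 to 197 CPM (median 51.8) in isolated cells and 64.8 to 98.9 CPM (median 83.9) in homogenate and did not pass (-0.28 ± 0.25, edgeR FDR 0.299). With the mouse as a block it passed as lower, at -0.47, as it did without isolated library 80, at -0.52. Tnr, the tenascin R gene, was lower (-2.12 ± 0.17).

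**Figure D2:**
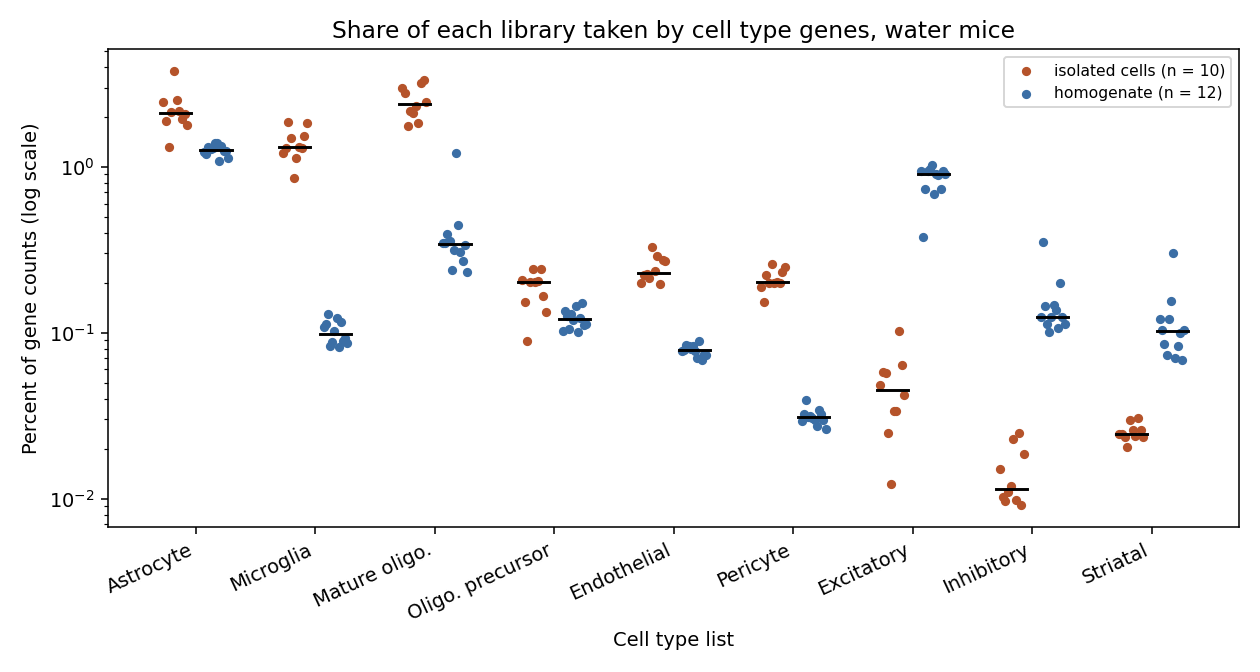
Percent of gene counts (y axis, log scale) taken by 9 cell type lists in each library of the water mice. Each point is a library, isolated cells in orange (n = 10) and homogenates in blue (n = 12), and black bars are medians. The homogenate of mouse 73 stands above the rest for mature oligodendrocyte (1.20%) and striatal genes (0.304%), and that of mouse 68 below for excitatory (0.377%) and above for inhibitory genes (0.354%).

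Endothelial genes were higher in all 20 cases with a median of 1.39, among them the tight junction gene Cldn5 (1.34 ± 0.12), Pecam1 (1.64 ± 0.11) and the thyroid hormone transporter gene Slco1c1 (2.14 ± 0.09), which astrocytes also use. Pericyte genes were higher in all 13 cases with a median of 2.69: Pdgfrb rose by 2.53 ± 0.1, Rgs5 by 2.64 ± 0.13, and the potassium channel pair Kcnj8 and Abcc9 by 3.28 ± 0.14 and 3.3 ± 0.12. All 7 smooth muscle genes tested were higher (median 2.14), such as Acta2 (2.14 ± 0.24) and Myh11 (2.27 ± 0.24). Fibroblasts, which sit in the meninges and around larger vessels, differed. Of 13 fibroblast genes 2 were higher, 3 lower and 8 did not pass, with the collagen gene Col1a2 not past it (0.33 ± 0.24) and Fmod, a proteoglycan gene of the meninges, at -2.75 ± 0.5. The median of the fibroblast list was -0.28. Without homogenates 68 and 73 it was 0.03, with 2 genes higher and 1 lower. In the basement membrane, 11 of 15 genes were higher and 4 did not pass, the higher ones including the laminin gene Lama2 (1.84 ± 0.15). The paired collagen IV genes Col4a1 and Col4a2, which share a promoter region and are transcribed in opposite directions, stood at 0.67 ± 0.1 and -0.13 ± 0.1. Of the 9 ependyma and choroid plexus genes tested, 2 were higher and 6 lower, among the latter Ttr, the transthyretin gene, at 0.474 to 7.63 CPM (median 2.25) in isolated cells and 2.75 to 285 CPM (median 34.2) in homogenate (-4.2 ± 0.81). The summed share of the list went the other way, with a within-mouse ratio of 3.04-fold (from 1.17 to 4.84). Enpp2, which is also in the mature oligodendrocyte list, was among the higher genes. In the ethanol mice described below, 3 genes of the list were higher and 3 lower.

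Neuron genes were lower in nearly every case, typically by more than 8-fold. All 20 general neuron genes, all 15 of excitatory neurons, and 19 of 20 of interneurons were lower, with medians of -3.89, -4.14 and -3.69. The excitatory share was 0.0123% to 0.102% (median 0.0454%) in isolated cells and 0.377% to 1.03% (median 0.904%) in homogenate. Syt1, the calcium sensor of vesicle release, ran from 14.5 to 175 CPM (median 89.2) in isolated cells and 1350 to 2131 CPM (median 1669) in homogenate (-4.33 ± 0.25). Camk2a, whose messenger RNA is abundant in dendrites, fell from 1643 to 5399 CPM (median 4313) in homogenate to 49.3 to 421 CPM (median 155) (-4.67 ± 0.33). Among interneuron genes the GABA synthesis gene Gad1 stood at -4.68 ± 0.49, the vesicular transporter gene Slc32a1 at -5.57 ± 0.35 and Pvalb at -5.78 ± 0.65. Dlx2 was the 1 that did not pass (-0.98 ± 0.45, edgeR FDR 0.0512). It passed as lower, at -1.04 to -1.27, without any 1 of isolated libraries 68, 73, 80 and 82 and homogenates 70, 71, 74, 79, 81 and 82, and at -0.95 with the mouse as a block. Striatal genes were lower in 10 of 11 cases, with Penk at -5.82 ± 0.7 and Drd1 at -5.74 ± 0.83. Adora2a did not pass, at 6.93 to 28.7 CPM (median 16.2) in isolated cells and 2.05 to 89.7 CPM (median 6.37) in homogenate (-0.01 ± 0.59). Its highest value was that of homogenate 73, without which its fold change was 0.72. With the mouse as a block it passed as higher, at 0.97.

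By compartment, the postsynaptic density list had a lower median (-4.31, 21 of 21 lower) than the list of synaptic vesicles and release (-3.53, 20 of 20), and the difference between the lists was not tested. Shank1, Shank2 and Dlgap2, which encode scaffolds of that density, stood at -4.85 ± 0.25, -5.15 ± 0.19 and -5.41 ± 0.24. Dlg4, the gene of PSD-95, was lower by less (-2.97 ± 0.12). Voltage-gated sodium and potassium channel genes were lower in 24 of 24 cases (median -4.51), with Scn1a at -5.41 ± 0.27 and Scn8a at -4.49 ± 0.18. The least affected of them was Kcna1 (-0.74 ± 0.15). Cytoskeletal genes of axons and dendrites were lower in 20 of 21 cases, such as Nefh, the heavy neurofilament gene (-5.79 ± 0.36), and Map2 (-2.63 ± 0.13). Mapt, the tau gene, was the 1 that did not pass, with 454 to 789.9 CPM (median 592) in isolated cells and 465 to 822 CPM (median 686) in homogenate (-0.19 ± 0.11). It passed as lower without isolated library 81 (-0.23) or homogenate 68 (-0.21). Oligodendrocytes also transcribe Mapt. Elavl3, of the neuronal HuC protein, was the general neuron gene with the smallest change (-0.47 ± 0.11).

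Layer genes of the cortex were less uniform. Of 10 upper layer genes 6 were lower and 2 higher, and of 15 deep layer genes 11 were lower and 2 higher. Lamp5 (-4.89 ± 0.4) and Rasgrf2 (-4.67 ± 0.36) were among the lower upper layer genes, and the transcription factor genes Bcl11b (-5.78 ± 0.38) and Foxp2 (-3.81 ± 0.52) among the lower deep layer genes. Rorb (0.6 ± 0.19) and Pou3f3 (0.65 ± 0.11) among upper layer genes, and Tle4 (0.43 ± 0.12) and Etv1 (0.85 ± 0.18) among deep layer genes, were the higher ones. Rorb and Pou3f3 are also transcribed by astrocytes of the mouse cortex. Kcns3, a modulatory potassium channel gene of parvalbumin neurons, had 0 counts in every isolated library and 446 counts over the 12 homogenates. Against a floor of 3 counts over the isolated group it was at least 30.3-fold lower. Alox12b (at least 28.8-fold), Npy5r (at least 26.4-fold) and Zfp599 (at least 20.2-fold) were lower in the same way. In total 2418 genes had counts in a homogenate and 0 in all isolated libraries, and 204 the reverse. The homogenate libraries were deeper, and the part of depth in these counts was not tested.

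Where the counts averaged 20 or more per library, Tnf led the 20 largest rises. Outside the gene families described in turn, Rgs1, which encodes a regulator of G protein signalling in leukocytes, ran from 47.4 to 149 CPM (median 101) in isolated cells and 0 to 1.28 CPM (median 0.345) in homogenate (7.87 ± 0.25). Ccrl2, a receptor gene that binds chemerin without signalling, rose by 6.23 ± 0.18. Rab20, of a small GTPase of phagosomes, rose by 6.0 ± 0.23. None of these overlapped between the fractions. Among the 20 largest falls were genes of small classes of neurons. Syt2, a calcium sensor gene of parvalbumin neurons, was at 0 to 1.9 CPM (median 0) in isolated cells and 7.46 to 55.1 CPM (median 18.8) in homogenate, Cort, the cortistatin gene of somatostatin neurons, at 0 to 1.9 CPM (median 0) and 4.73 to 9.32 CPM (median 6.34), and Gjd2, of the neuronal gap junction protein connexin 36, at 0 to 0.39 CPM (median 0) and 2.49 to 21.1 CPM (median 6.93). At such levels the isolated libraries held 0 to a few counts, and the fitted changes (-6.39 ± 0.78, -6.07 ± 0.47 and -6.4 ± 0.73) depend on the prior count.

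The most abundant transcripts differed between the fractions. In isolated cells the 15 highest by mean level included Slc1a2, Jun, Hspa1a, Hspa1b, Glul, Actb and Apoe. In homogenate they included Camk2a, Meg3, Kif5a, Map1a, Ddn and Shank1 beside Slc1a2. Ddn, which encodes the dendritic protein dendrin, ran from 21.6 to 205 CPM (median 58.2) in isolated cells and 1133 to 3035 CPM (median 2298) in homogenate (-5.22 ± 0.34), and Kif5a, an axonal motor gene, from 85.3 to 343 CPM (median 168) and 1305 to 4340 CPM (median 3379) (-4.15 ± 0.27). Apoe, the lipid carrier gene of astrocytes and microglia, rose by 0.86 ± 0.12, and Scd2, a desaturase gene of lipid synthesis, by 1.04 ± 0.11. Rn45s, the ribosomal RNA precursor, was among the highest in both fractions and varied widely, from 2597 to 60531 CPM (median 9455) in isolated cells and 1634 to 13130 CPM (median 5162) in homogenate. Lars2 and Mir6236 passed as higher (1.94 ± 0.53 and 2.61 ± 0.56).

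Early response genes were among the most raised, and several of their families divided. Fos ran from 1187 to 2039 CPM (median 1513) in isolated cells and 22.3 to 167 CPM (median 46.3) in homogenate (4.75 ± 0.26), Fosb rose by 4.96 ± 0.26, Jun by 5.09 ± 0.16 and Atf3 by 7.05 ± 0.33, all without overlap. The highest homogenate value of Fos, 167 CPM, was that of mouse 68. Of 18 genes in this list, 15 were higher and 2 lower. The lower 2 were EGR family members: Egr3 ran from 15.1 to 68.3 CPM (median 49.7) in isolated cells and 130.4 to 434 CPM (median 285) in homogenate (-2.67 ± 0.23), and Egr4 was lower (-4.54 ± 0.36), whereas Egr1 (2.03 ± 0.17) and Egr2 (1.49 ± 0.27) were higher. Egr1 and Egr2 were chosen after their values were seen. The nuclear receptor genes of the NR4A family divided too, with Nr4a1 higher (1.37 ± 0.19) and Nr4a2 and Nr4a3 lower (-1.27 ± 0.32 and -1.51 ± 0.2). Neuronal activity genes proper were lower in 12 of 12 cases, such as Arc (-2.72 ± 0.25) and Npas4 (-4.4 ± 0.51). Klf2 (4.79 ± 0.18) and Dusp2 (6.16 ± 0.21), which blood-lineage cells and endothelium use, were higher.

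**Figure D3:**
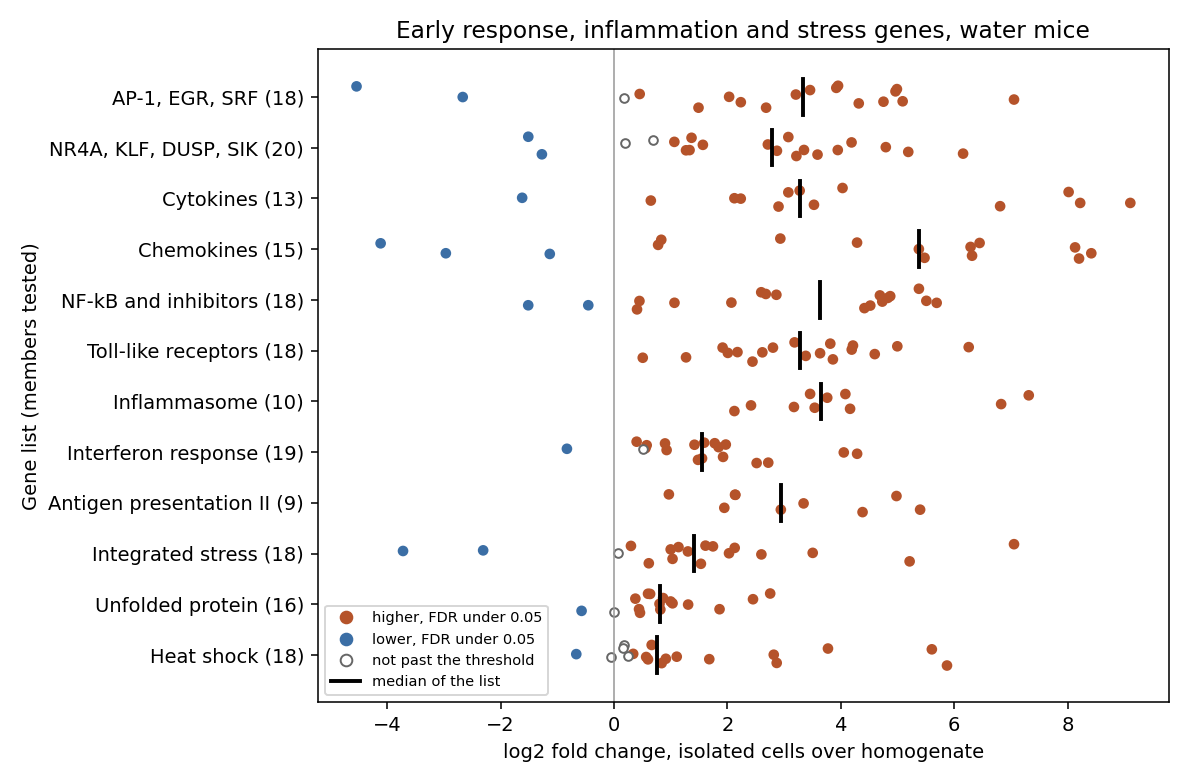
Log2 fold change (x axis, isolated cells over homogenate, water mice) of each tested member of 12 lists of early response, inflammation and stress genes (y axis, number tested in brackets). Filled points passed an FDR of 0.05, open points did not, and black bars are list medians. Most members lie to the right of 0, and the points far to the left include Egr3 and Egr4, the chemokine genes Cx3cl1 and Ccl27a, and Asns and Chac1.

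Inflammatory cytokine genes had few or 0 counts in homogenate. Tnf ran from 72.8 to 276 CPM (median 184) in isolated cells and 0 to 1.79 CPM (median 0.194) in homogenate, and Il1b from 20.9 to 69 CPM (median 51.4) and 0 to 0.378 CPM (median 0.0733). Both passed the count filter through the isolated libraries alone, so their direction was fixed by that filter. Of 13 cytokine genes tested 12 were higher, these among them, and Il34, a ligand of the microglial receptor CSF1R that neurons make, was lower (-1.62 ± 0.12). The microglial list, raised a median of 14.3-fold (from 7.03 to 22.4) within mice, moved with these genes, and its part in their rise was not tested. Il6 and 8 other cytokine genes of the list had too few counts to be tested. Chemokines separated in the same way, with 12 of 15 higher and 3 lower. Ccl3 (8.42 ± 0.24), Ccl2 (6.31 ± 0.31) and Cxcl10 (6.29 ± 0.45) were higher. Cx3cl1, the fractalkine gene through which neurons signal to microglial CX3CR1, ran from 42.5 to 133 CPM (median 57.5) in isolated cells and 740.1 to 1445 CPM (median 1040) in homogenate (-4.12 ± 0.18). Ccl27a was also lower (-2.97 ± 0.2). Cx3cl1 was the most abundant chemokine gene of the list in homogenate. The summed chemokine share was 0.0762% to 0.129% (median 0.0999%) in isolated cells and 0.0985% to 0.162% (median 0.132%) in homogenate, opposite to the count of genes.

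Genes of innate immune signalling were higher as well. All 18 Toll-like receptor and adaptor genes were higher (median 3.28), from the kinase gene Irak1 (0.51 ± 0.1) to Tlr2 (6.25 ± 0.19), and all 10 inflammasome genes (median 3.65), with Nlrp3 at 6.83 ± 0.19 and Casp4 at 7.31 ± 0.27. Of 18 genes of NF-kB and its inhibitors, 16 were higher and 2 lower. Tnfaip3, the gene of the feedback inhibitor A20, ran from 287 to 735 CPM (median 541) in isolated cells and 5.4 to 15.2 CPM (median 11.1) in homogenate (5.69 ± 0.19). Nfkb2 rose by 4.69 ± 0.18 and Rela by 2.59 ± 0.09. Cyld, a deubiquitinase gene of the same feedback, was lower (-1.51 ± 0.14). NF-kB dimers bind DNA sites whose core is a near-palindrome, and 4 strongly raised genes carry one such match in the 250 bases before a RefSeq start. They are shown to make that shared element visible, as 120-base stretches from RefSeq (GRCm38.p6) in the direction of transcription, with GGAANTTCC in capitals.
Cxcl2, chr5:90903747-90903866, plus strand: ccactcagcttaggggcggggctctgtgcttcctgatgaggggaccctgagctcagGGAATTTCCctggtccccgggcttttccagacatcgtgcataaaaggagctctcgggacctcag
Nfkbia, chr12:55492648-55492767, minus strand: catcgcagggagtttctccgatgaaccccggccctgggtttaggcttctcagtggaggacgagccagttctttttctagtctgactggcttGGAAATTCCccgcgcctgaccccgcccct
Tnfaip3, chr10:19015411-19015530, minus strand: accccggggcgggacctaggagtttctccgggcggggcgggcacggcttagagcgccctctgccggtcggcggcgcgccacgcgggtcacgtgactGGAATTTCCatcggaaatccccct
Icam1, chr9:21015731-21015850, plus strand: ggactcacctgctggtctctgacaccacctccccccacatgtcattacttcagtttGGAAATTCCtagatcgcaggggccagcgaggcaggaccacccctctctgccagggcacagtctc

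Cxcl2 encodes a chemokine for neutrophils (8.2 ± 0.44), Nfkbia the inhibitor that holds NF-kB in the cytoplasm (4.42 ± 0.14), and Icam1 an adhesion molecule for leukocytes (7.12 ± 0.19). The match begins 96 bases before the RefSeq start of Cxcl2, 29 before that of Nfkbia, 24 before that of Tnfaip3 and 153 before that of Icam1. By the gene models of GENCODE M21, Tnfaip3 begins further upstream, and its match lies inside the gene. The motif was chosen with these sequences in view. On both strands of the 250 bases before the start, GGAANTTCC was in 267 of 32851 RefSeq promoters (0.813%) and in 107 of 13155 promoters of genes tested (0.813%). It was in 2 of 22 promoters of the NF-kB list (9.09%) and 3 of 14 of the chemokine list (21.4%), those of Cxcl2, Cxcl10 and Ccl12, and in 0% to 7.69% of the promoters of the other 6 lists searched. The looser NF-kB consensus, which overlaps it in part, was in 7.25% of all promoters, in 9.13% of those of genes tested and in 10 of the 22 promoters of the NF-kB list (45.5%). Other lists also held it above the share of all promoters: 7 of 20 promoters of the AP-1, EGR and SRF list (35%), 4 of 13 of the cytokine list (30.8%), 3 of 14 of the chemokine list (21.4%), 4 of 19 of the heat shock list (21.1%) and 2 of 15 of the microglia list (13.3%). An AP-1 site and a cyclic AMP element were also searched. The AP-1 site, TGANTCA, was in 4.37% of promoters of genes tested. It was in 6 of 22 of the NF-kB list (27.3%) and 3 of 14 of the chemokine list (21.4%). In the other lists it was in 0% to 15.4%, with 0 of 20 in the AP-1, EGR and SRF list. The cyclic AMP element was in 1 of 22 of the NF-kB list and 0 of 14 of the chemokine list. A match is a description of letters and not a site shown to be bound. Some of these genes have several RefSeq starts, so the lists hold more promoters than genes.

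Interferon, antigen presentation and feedback genes were uneven. In the interferon list 17 of 19 genes were higher, and the sizes varied. Isg15, a ubiquitin-like modifier gene, rose by 2.72 ± 0.32, and Cmpk2, a nucleotide kinase gene, was lower (-0.83 ± 0.14). Irf8, a transcription factor gene of microglia, was higher by 4.29 ± 0.15. Class II antigen presentation genes were higher in all 9 cases, with the invariant chain gene Cd74 at 25.8 to 97 CPM (median 61) in isolated cells and 3.11 to 14.9 CPM (median 5.65) in homogenate (2.94 ± 0.27). Class I genes were higher in 9 of 10, H2-K1 by 3.93 ± 0.12 and B2m by 2.91 ± 0.11. H2-K1 and its relatives are similar in sequence, so counts may be shared among them. Within the SOCS family of cytokine feedback genes, Socs3 rose by 5.6 ± 0.15, while Socs2 (-1.51 ± 0.24) and Socs5 (-1.79 ± 0.12) were lower. The prostaglandin synthase genes split as well, with Ptgs1 at 136 to 262 CPM (median 196) in isolated cells and 17.5 to 38.2 CPM (median 29.6) in homogenate (2.79 ± 0.12) and Ptgs2, which cortical neurons express, lower (-1.13 ± 0.27).

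Regulators of messenger RNA decay were higher in 9 of 12 cases and lower in 2. Zfp36, the gene of tristetraprolin, which destabilises cytokine messenger RNAs, ran from 945 to 1905 CPM (median 1592) in isolated cells and 7.46 to 24.6 CPM (median 9.09) in homogenate (7.23 ± 0.2). Zc3h12a, the gene of the endonuclease regnase-1, rose by 6.6 ± 0.21, and Zfp36l1 and Zfp36l2 by 2.65 ± 0.11 and 3.12 ± 0.09. The general decay genes Dcp2, for decapping, and Cnot7, for deadenylation, were lower (-1.44 ± 0.14 and -0.76 ± 0.08).

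Of 18 integrated stress response genes tested, 15 were higher and 2 lower (median 1.42). Ppp1r15a, the gene of the phosphatase subunit that ends the response, ran from 419 to 939 CPM (median 657) in isolated cells and 13.8 to 22.6 CPM (median 17.9) in homogenate (5.21 ± 0.13), and Atf4 and Ddit3 rose by 1.53 ± 0.1 and 1.61 ± 0.11. Asns, the asparagine synthetase gene and a textbook ATF4 target, was at 2.41 to 13.8 CPM (median 4.67) in isolated cells and 34.9 to 75.4 CPM (median 61.4) in homogenate (-3.72 ± 0.2). Chac1, another ATF4 target, was lower (-2.31 ± 0.34). These 2 were the lower members. Phgdh and Psat1, of serine synthesis, rose by 2.13 ± 0.14 and 1.74 ± 0.12. Of the unfolded protein response 14 of 16 genes were higher, among them Edem1, for degradation of misfolded proteins (2.75 ± 0.12), and the chaperone gene Hspa5 (1.86 ± 0.1), and Atf6, a sensor gene, was lower (-0.57 ± 0.15).

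Heat shock genes differed widely in size. Hspa1a and Hspa1b, the inducible HSP70 genes, ran from 1535 to 3652 CPM (median 2476) and 1492 to 3630 CPM (median 2396) in isolated cells and from 27.5 to 65.3 CPM (median 41.7) and 22.8 to 95.1 CPM (median 47.1) in homogenate. Their coding sequences are nearly identical, so the split between them is uncertain. The list had 13 of 18 higher with a median of 0.75. Hspa4, a constitutive relative, was lower (-0.67 ± 0.07). Heat shock factor binds inverted repeats of GAA, and the promoter of Hspa1a shows 1 such pair, GAANNTTC, in capitals (RefSeq, GRCm38.p6).
Hspa1a, chr17:34972197-34972316, minus strand: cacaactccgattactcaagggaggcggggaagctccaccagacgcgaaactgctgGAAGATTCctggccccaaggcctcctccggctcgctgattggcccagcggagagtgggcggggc

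On either strand of the 250 bases before the start, GAANNTTC was in 6.69% of all RefSeq promoters, in 5% of those of genes tested and in 6 of 19 promoters of the heat shock list (31.6%). These belonged to Hspa1a, Hspa1b, Hspb1, Dnaja1, Hspd1 and Hspe1. The same letters were in 4 of 19 promoters of the general neuron list (21.1%), in 2 of 15 of the microglia list (13.3%) and in 0% to 10% of those of the other 5 lists searched. Hspd1 and Hspe1 are neighbours that are transcribed from 1 shared stretch. Redox genes went several ways, with the haem oxygenase gene Hmox1 at 4.65 ± 0.17, the sulfiredoxin gene Srxn1 at -1.88 ± 0.12 and the mitochondrial dismutase gene Sod2 at -1.34 ± 0.1.

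Glucocorticoid, apoptosis and cell cycle genes also leaned upward. Of 14 glucocorticoid target genes 11 were higher, with Tsc22d3, the GILZ gene, at 2.19 ± 0.18, while Fkbp5, a co-chaperone gene of the same receptor, did not pass (0.2 ± 0.19). Zbtb16 was lower (-1.31 ± 0.27), as was the mineralocorticoid receptor gene Nr3c2 (-0.81 ± 0.16). Of 18 genes of p53 and apoptosis 15 were higher, among them Cdkn1a (1.21 ± 0.21) and Bcl2a1d (6.31 ± 0.42), a survival gene of blood-lineage cells with near-identical copies. Of 13 cell cycle genes 9 were higher, with the proliferation marker gene Mki67 at 1.41 ± 0.32 and the replication gene Mcm3 at 2.71 ± 0.16, and Ccne1 was lower (-3.0 ± 0.31).

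The hexokinase genes Hk1 and Hk2 differed in opposite directions. Hk2, the inducible hexokinase gene, ran from 89.9 to 256 CPM (median 147) in isolated cells and 7.46 to 12.8 CPM (median 10.1) in homogenate (4.0 ± 0.16), and Hk1, the main hexokinase gene of neurons, from 97.4 to 161 CPM (median 127) and 256 to 491 CPM (median 411) (-1.63 ± 0.11). Neither overlapped. The glucose transporter gene Slc2a1 of endothelium and glia was higher (1.73 ± 0.1), as were Pfkfb3 (2.33 ± 0.15) and Vegfa (1.68 ± 0.1), whereas of the 19 hypoxia and glycolysis genes tested 8 were higher and 10 lower. Among 46 nuclear genes of the respiratory chain, 0 were higher, 35 lower and 11 did not pass (median -0.52). Cox8a was the most reduced, at 52 to 98.2 CPM (median 81.3) in isolated cells and 171 to 321 CPM (median 249) in homogenate (-1.71 ± 0.13). Their shift is small, and upper-quartile scaling, which moves the median of all genes by 0.104, left 30 lower and 1 higher. The genes of the mitochondrial genome were not analysed here.

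Changes in ribosomal protein genes were small. Of 58 ribosomal protein genes tested 26 were higher, 7 lower and 25 did not pass (median 0.3), and without the isolated libraries under 1000000 counts 15 were higher and 10 lower. The ends were Rpl10 (1.92 ± 0.15) and Rps15a (-1.92 ± 0.15). These families have many processed pseudogenes, so their counts are uncertain. The elongation factor pair split, with Eef1a1 higher (0.6 ± 0.08) and Eef1a2, which replaces it in mature neurons, lower (-3.7 ± 0.25). Eef1a1 was chosen after its value was seen. Of 27 proteasome genes 7 were higher and 8 lower. Lysosomal genes, by contrast, were higher in 25 of 28 cases (median 1.74), including the cathepsin genes Ctsd (2.74 ± 0.11) and Ctss (3.53 ± 0.14), the latter microglial. Gaa, the acid glucosidase gene, was lower (-0.4 ± 0.09).

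**Figure D4:**
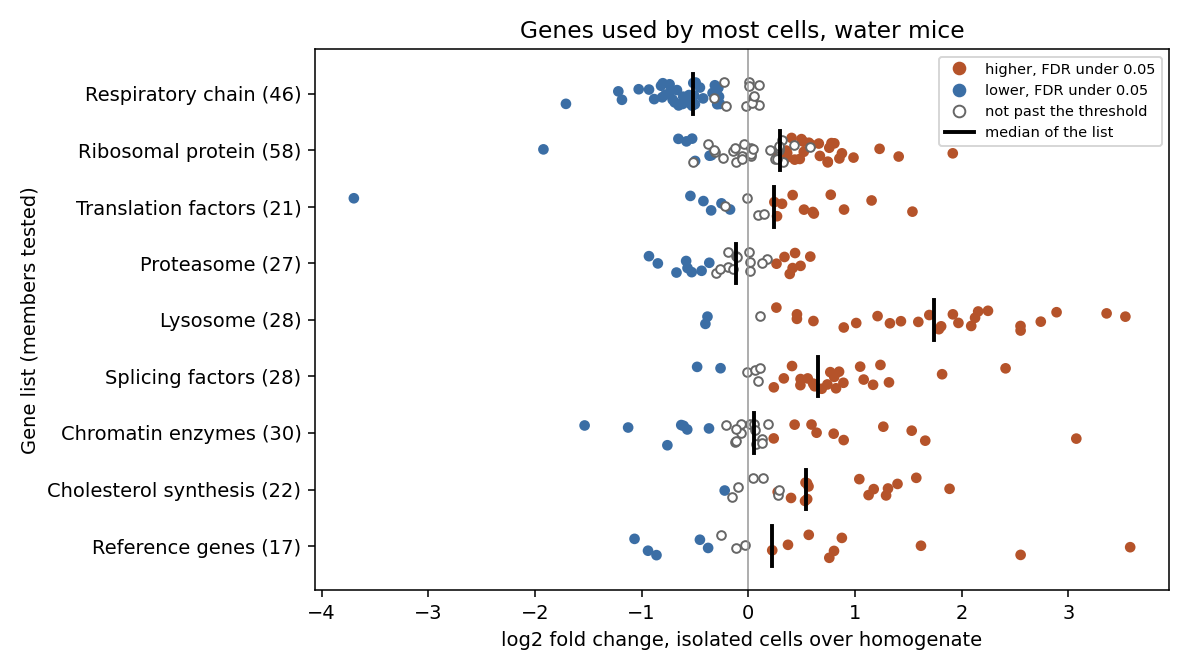
Log2 fold change (x axis, isolated cells over homogenate, water mice) of each tested member of 9 lists of genes used by most cells (y axis, number tested in brackets). Filled points passed an FDR of 0.05, open points did not, and black bars are list medians. Respiratory chain genes lie mostly below 0, lysosomal and splicing genes above it, and reference genes spread to both sides, with Tubb5 the lowest at -1.07.

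Nuclear genes showed further paired contrasts. Of 28 splicing factor genes 22 were higher and 2 lower. Ptbp1, the polypyrimidine tract protein gene that neurons switch off, ran from 115 to 229 CPM (median 196) in isolated cells and 22.1 to 47.9 CPM (median 34.1) in homogenate (2.41 ± 0.13), and Ptbp2, its neuronal relative, was lower (-0.48 ± 0.09). Of 30 genes of chromatin enzymes 10 were higher, 7 lower and 13 did not pass. Kdm6b, an inducible histone demethylase gene of macrophages, rose by 3.07 ± 0.18. Among nuclear long noncoding RNAs, Meg3 fell from 3070 to 7045 CPM (median 5003) in homogenate to 60.2 to 421 CPM (median 168) (-4.77 ± 0.3), Neat1 was higher (1.5 ± 0.19) and Malat1 did not pass (0.29 ± 0.28). Genes of cholesterol synthesis were higher in 15 of 22, with the regulator gene Srebf1 at 1.89 ± 0.1.

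Genes often used as references for quantitative PCR differed between the fractions in 9 cases upward and 5 downward of 17, a share close to the 77.5% of all genes tested that were called. Actb rose by 1.62 ± 0.1 and Gapdh by 0.57 ± 0.19, though Gapdh did not pass without the isolated libraries under 1000000 counts (0.24). Hprt and Tubb5 were lower (-0.94 ± 0.13 and -1.07 ± 0.11). Ppia, the cyclophilin A gene, did not pass (-0.12 ± 0.12). Among the 10 most abundant homogenate genes whose 95% interval of the change lay inside 0.25 on the log2 scale were Ddx17, an RNA helicase gene, and Grina, a gene of an endoplasmic reticulum membrane protein. Ddx17 had 577 to 776 CPM (median 702) in isolated cells and 536 to 1149 CPM (median 646) in homogenate (0.02 ± 0.11), and Grina had 251 to 421 CPM (median 301) and 242 to 377 CPM (median 328) (0.03 ± 0.1).

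**Figure D5:**
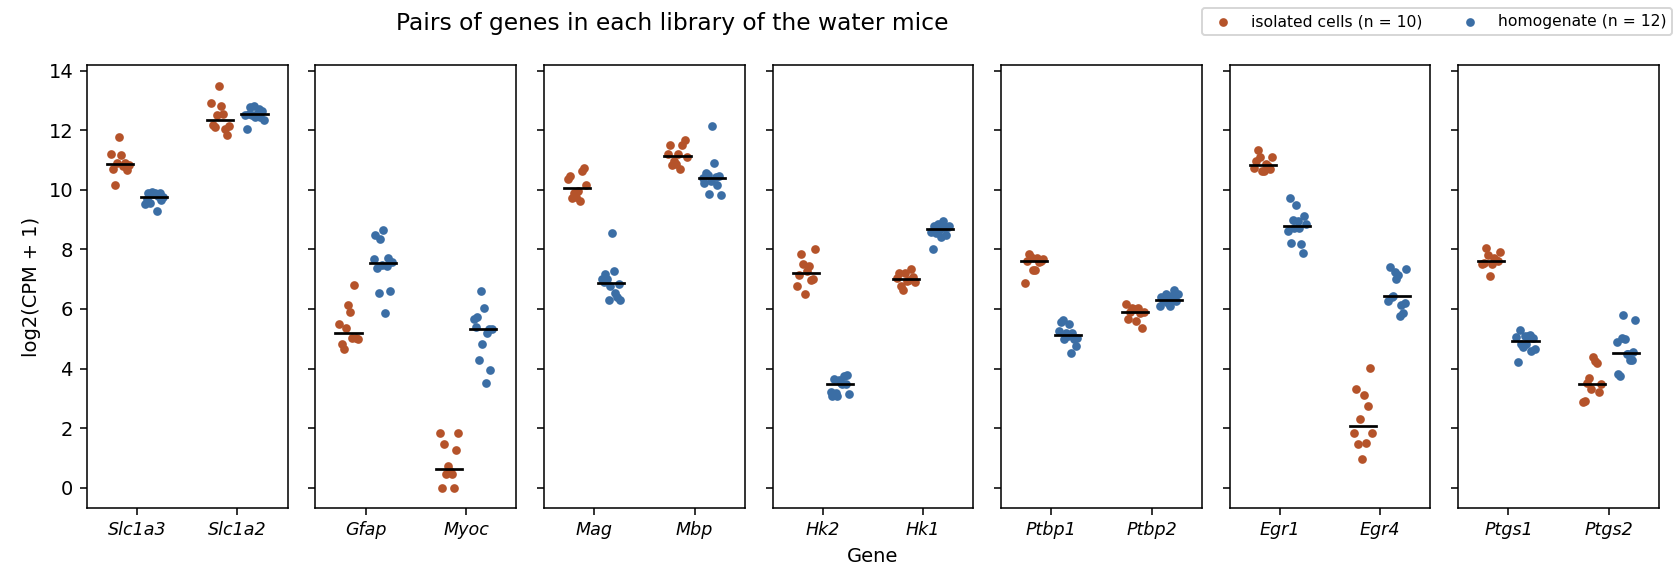
Level of 14 genes, as log2(CPM + 1) (y axis), in each of the 10 isolated (orange) and 12 homogenate libraries (blue) of water mice, set out in pairs, with black bars at the medians. In each pair the gene on the left rises more, or falls less, from homogenate to isolated cells than the gene on the right. Slc1a2 overlaps where Slc1a3 separates, and Hk2 and Hk1, Ptbp1 and Ptbp2, Egr1 and Egr4, and Ptgs1 and Ptgs2 differ in opposite directions.

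By position, on mm10 with the gene models of GENCODE M21, Slc1a2 lies on chromosome 2 (102658659 to 102790784), Gfap on chromosome 11 (102887336 to 102900912), Myoc on chromosome 1 (162639155 to 162649693), Mbp on chromosome 18 (82475146 to 82585637), Cx3cl1 on chromosome 8 (94772009 to 94782427), Asns on chromosome 6 (7675169 to 7693254), and Hk2 on chromosome 6 (82725025 to 82774454). All are protein-coding genes, and counts are given per whole gene. Of the genes named here, Abcc9, Alas2, Bdnf, Ccl27a, Cd55, Cnot7, Col4a1, Col4a2, Cx3cr1, Cxcl10, Ddn, Ddx17, Dnaja1, Gapdh, Gjd2, Glul, Gpr17, Hes5, Hk1, Hspa1a, Hspd1, Hspe1, Icam1, Il1b, Il34, Jun, Kdm6b, Lama2, Map1a, Map2, Meg3, Myoc, Nfia, Nfix, Nfkb2, Olig1, P2ry12, Pdgfra, Penk, Ppp1r15a, Ptbp1, S1pr3, Shank1, Slc1a2, Slc2a1, Slc32a1, Srebf1, Tnc, Tnr, Zfp36, Zfp36l1 and Zfp36l2 share exonic bases with an annotated gene on the other strand, so without a stated strand setting their counts are uncertain. In 4 groups of genes of equal size ordered by exonic length, from short to long, the median log2 fold change was 0.01, 0.04, -0.07 and -0.17. Long intergenic noncoding RNAs had a median of -0.60, with 17 of 90 higher and 48 lower.

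The level of a gene in a mouse's homogenate was also set against its level in that mouse's isolated cells. Over 10 mice, 12 relations were computed, 1 for each of 12 cell type genes, and 0 passed after adjustment (permutation tests of 100000 resamples, Benjamini-Hochberg). The strongest were those of Pdgfrb (Pearson r = -0.745, permutation p = 0.0139, adjusted p = 0.122, Spearman rho = -0.758, permutation p = 0.0148, adjusted p = 0.178) and Pdgfra (r = 0.717, permutation p = 0.0203, adjusted p = 0.122, rho = 0.636, permutation p = 0.0531, adjusted p = 0.319). Without the 2 mice farthest from the median homogenate level, r was -0.790 and 0.809. Isolated libraries varied more among mice than homogenates: the median SD of log2 CPM over 7554 well counted genes was 0.325 in isolated cells and 0.204 in homogenates, and 81% of the genes had the larger SD in isolated cells. The isolated libraries are also the shallower ones.

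The same comparison in mice that drank 15% ethanol every other day for 72 days shares no library with this one. In these 10 isolated fractions and 12 homogenates, 5374 of 13489 genes (39.8%) were higher and 5646 (41.9%) lower. Of 10346 genes called in water mice and tested in ethanol mice, 10320 had the same direction (99.7%), 9866 were called in both in that direction and 1 in the opposite one. Slc1a2 was level in water mice but lower in ethanol mice, at -0.42 (edgeR FDR 0.00498), and the difference between them did not pass in the joint model (edgeR FDR 0.808). Gfap (-2.25), Myoc (-5.68), Mbp (0.73), Asns (-3.51) and Egr4 (-5.02) had the same sign there. Not all genes that went against their lists in water mice were called again. Of the complement genes 0 were lower in ethanol mice, against 1 in water mice. Of the NR4A, KLF, DUSP and SIK early genes 1 was lower, against 2. In 1 model of all 4 groups, 0 of 14087 genes passed for a difference in fraction effect between ethanol and water mice at an FDR under 0.05 (0 higher and 0 lower, percent called 0), and 834 had an unadjusted p under 0.05 in edgeR.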

How the data were processed

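The deposited files hold raw read counts per gene symbol, 24421 genes and 5 tally lines a library. The submitters' processing notes name HTSeq 0.5.3p9 Bowtie2 2.2.5, the mm10 build, cutadapt 1.8, bcl2fastq 2.17, Picard 1.141 and DESeq2, and per the labels' protocols the kit was directional, with 15 PCR cycles and paired 150-base reads. Neither the counting strand nor the gene models were stated in the sources used here. The isolated library of mouse 72 was not analysed here.

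The tally lines were left out of totals: reads with no feature were 4.05% to 20.6% of isolated and 18.8% to 36.2% of homogenate libraries, ambiguous reads at most 0.381%, and non-unique alignments were listed at 0 throughout. Groups came from the labels. Counts were tested with edgeR 4.0.16 (R 4.3.3, filterByExpr, trimmed mean scaling, robust quasi-likelihood test, Benjamini-Hochberg adjustment), 10 isolated libraries against 12 homogenates without a block. The filter admits a gene with enough counts in either fraction alone. A gene near 0 in the other fraction could then be called only in the direction of the fraction that admitted it. The fitted fold changes used the default prior count of edgeR, and log2 CPM values used a prior count of 2. Alternatives used DESeq2 1.42.0, limma 3.58.1, other scalings and filters, thinning, each library left out, and the mouse as a block. In the labels' titles the same number marks both fractions of a mouse. Deviations from the group means of same-numbered libraries correlated weakly (median 0.0274, -0.0337 to 0.139), those of other pairs at a median of -0.00579. On simulated counts for 13362 genes, 200 of them changed, the test recovered 90% of genes changed 2-fold and 56% of those changed 1.5-fold. The simulation gave every gene and both fractions the same dispersion. In the data far more genes were called, and the isolated libraries varied more (median SD 0.325 against 0.204). The recovered shares therefore need not hold for this comparison.

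A gene with 0 counts in a group was set to a floor of 3 counts over the group (0.206 CPM isolated, 0.042 CPM homogenate). Such floors allow for counting error in the group at 0 only, and take the counts of the other group as exact. They do not cover the spread between mice. The p-values cover counting error and the spread between these mice only, and PCR duplicates were not counted by molecular identifiers. Positions are from GENCODE M21, with 23334 of 24421 symbols matched, and promoters from RefSeq, with 10192 tested genes matched.

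The libraries, the 66 gene lists and the tests were chosen with earlier results of these data known. Named genes were, in each list, the first 4 tested, the highest, the lowest and those called against most of the list, and, over all genes, the 20 largest changes each way, the 15 most abundant in each fraction, 10 level abundant genes, genes at 0 in 1 fraction and 12 cell type genes. Atp1b2, Ppp1r3c, S100b, Mobp, Egr1, Egr2, Eef1a1, Cxcl2, Nfkbia, Phgdh, Psat1 and the motif holders Ccl12, Dnaja1, Hspd1 and Hspe1 fall outside that rule and were chosen after their values were seen. A few genes that the rule names are not reported here.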

Additional observations from a re-analysis of the deposited data

Results flagged for a closer look

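Among the 10 isolated libraries, 31 of 233 values examined (levels of 224 of the genes named and shares of 9 lists) had 1 library whose gap to its nearest neighbour exceeded 0.466 of the group's range, the 95% value of Dixon's test for 10 samples. For normally distributed values chance gives about 1 in 20 such gaps. CPM values need not be normally distributed, above all near 0 counts, so that rate need not hold here. Values of 1 library are also not independent of each other. The groups of 12 homogenates were not examined in this way, nor were 10 genes with at most 3 counts in every isolated library.

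The isolated library of mouse 80, the one with the lowest total count, was apart and highest for neuron genes: Cx3cl1 (133 CPM, the others 42.5 to 79.7), Ddn (205 CPM, the others 21.6 to 84.9), Dlg4 (131 CPM, the others 55.8 to 95.3), Dlgap2 (13.3 CPM, the others 0 to 5.2), Nefh (11.4 CPM, the others 0 to 2.76), Rasgrf2 (22.8 CPM, the others 2.9 to 10.9), Scn1a (20.9 CPM, the others 0 to 8.66) and Scn8a (64.5 CPM, the others 18 to 41.6). The same library was highest for Alas2 (37.9 CPM, the others 0.322 to 16.1), Gfap (110.1 CPM, the others 24.3 to 68.6), Gpr17 (104 CPM, the others 6.93 to 54.9) and Pdgfra (197 CPM, the others 22.1 to 113), genes of the oligodendrocyte lineage, fibrous astrocytes and red cells. In isolated library 80, Col1a2 was instead the lowest value, at 7.59 CPM against 31.4 to 47.8 CPM in the others. The isolated library of mouse 73 was apart for the astrocyte share (3.77%, the others 1.32% to 2.51%) and for Gja1 (2443 CPM, the others 541 to 1354), Rorb (282 CPM, the others 75.9 to 153), Slc1a2 (11559 CPM, the others 3641 to 7789), Slc1a3 (3456 CPM, the others 1156 to 2328), Slc38a3 (397 CPM, the others 225 to 315), Slco1c1 (416 CPM, the others 262 to 340.1), Sparcl1 (2676 CPM, the others 1265 to 1993) and Thbs4 (18.4 CPM, the others 0 to 7.61). Isolated library 70 was apart, as the highest, for Ccl12 (31.2 CPM, the others 3.81 to 15.2), Csf3r (409 CPM, the others 124 to 271), Hprt (53.7 CPM, the others 19 to 33), Hspd1 (132 CPM, the others 53.4 to 81.1) and Rps15a (36.4 CPM, the others 12.9 to 22.1). Isolated library 74 was apart, as the highest, for Zbtb16 (84.3 CPM, the others 13.9 to 33.2). Isolated library 81 was apart, as the highest, for Asns (13.8 CPM, the others 2.41 to 6.36) and Vegfa (584 CPM, the others 265 to 432). Isolated library 82 was apart, as the highest, for Cd55 (3.81 CPM, the others 0 to 1.44), the highest value being 3 counts.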

How the results depend on the processing

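Beside the 4994 higher and 5418 lower genes, DESeq2 called 4903 and 5650, limma voom 4993 and 5397, and edgeR without a count filter 5508 and 6585. Upper-quartile and library size scaling, which move the median of all genes by 0.104 and 0.0977, called 5464 and 4931 and 5403 and 4947, so the larger side of the split turned. With the mouse as a replicate block the counts were 4737 and 5102, and among the 227 genes named that could be tested with it the block changed the calls of Adora2a, Dlx2, Pdgfra and Ptprz1 and of no other. In ethanol mice the block gave 5211 and 5510, and the block left the difference between ethanol and water mice at 0. Counts fell below the main ones by more than 1.5 times with thinned libraries, to 3286 and 3300 of 8829 tested (and 1934 for at least 2-fold lower), and in a test against 1.5-fold, to 3124 and 3501, both by construction. Leaving out each library in turn gave 4928 to 5080 higher and 5303 to 5474 lower genes, and by at least 2-fold 2527 to 2640 and 2926 to 3099. Of 234 genes named, 197 kept direction and call under each of the 36 settings in which they could be tested, 2 of which (without homogenates 68 and 73, and without isolated libraries 73 and 80) were chosen after seeing the data, and 6 changed sign under some setting, none of them called in the comparison itself. Their log2 fold changes of opposite sign were, with upper-quartile scaling Adora2a (0.0888), with library size scaling Adora2a (0.0705), with limma voom Adora2a (0.79) and Slc1a2 (-0.0688), with a mean of at least 20 counts Adora2a (0.0292), with the replicate block Adora2a (0.97), Ppp1r3c (-0.0556) and Slc1a2 (-0.0349), without isolated libraries under 1000000 counts Adora2a (0.13) and Ddx17 (-0.0174), without homogenates 68 and 73 Adora2a (0.71) and Slc1a2 (-0.0274), with no count filter Ddx17 (-0.0183), Grina (-0.0107), Ppp1r3c (-0.0346) and Slc1a2 (-0.0358), without isolated libraries 73 and 80 Grina (-0.0216), Ppp1r3c (-0.15) and Slc1a2 (-0.12), with thinned libraries Ppia (0.0609), with DESeq2 Ppp1r3c (-0.0506) and Slc1a2 (-0.0246), with relative log expression scaling Ppp1r3c (-0.0276) and Slc1a2 (-0.0246). With a library left out, the ranges were Adora2a (-0.16 to 0.72), Grina (-0.00963 to 0.0805), Ppp1r3c (-0.15 to 0.0857) and Slc1a2 (-0.14 to 0.0688), and the cause was not tested. The depth of the isolated libraries limits low genes: 3 counts are 1.02 to 5.95 CPM there and 0.383 to 0.755 CPM in homogenate.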

Other observations

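A few genes had counts in isolated cells only. Spic, a transcription factor gene of iron-recycling macrophages, had 14 counts over 8 of the 10 isolated libraries and 0 in every homogenate. Against a floor of 3 counts over the homogenates it was at least 22.9-fold higher, a bound that takes the 14 counts as exact. H2-Q8, a class I gene with near-identical relatives, had 16 counts over 7 isolated libraries (at least 26.2-fold), and Tnfsf18, the gene of the GITR ligand, 9 counts over 6 (at least 14.7-fold).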
